A study of Saccharomyces cerevisiae with 12 samples.

Results

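The 200 poorly translated mRNAs described here were the genes with the fewest ribosome footprints per mRNA in budding yeast cells growing exponentially. They were chosen by their mean footprint RPKM divided by their mean mRNA RPKM over all genotypes, among genes with at least 20 RPKM in mRNA and 5 RPKM in footprints. RPKM is reads per kilobase of gene, scaled to library depth. Of 6159 genes in the table, 4078 met both minimums, and the 200 lowest made up 4.90% of these. Because the ratio chose the genes, its low value is a description and was not tested. The best known of them were HAC1, the transcription factor of the unfolded protein response, and GCN4, the activator of amino acid synthesis. Others included cyclins, repair factors, kinetochore proteins, mitochondrial factors and enzymes, most at a modest mRNA level.

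The study measured ribosome footprints and mRNA in Saccharomyces cerevisiae of the SK1 background, in 12 libraries with 2 replicates of each library type per genotype. All 3 genotypes carried a helicase gene under the DED1 regulatory regions: DED1 itself in Ded1 cells, DBP1 in Dbp1 cells, and 4 copies of DBP1 in 2xDbp1 cells, a strain built to match helicase levels. Cells of all groups were grown in YEPD at 30 °C, harvested at an optical density of 0.6 and given 100 µM cycloheximide for 1 min. Footprints were 28 to 31 nt long and mRNA fragments 50 nt. The labels do not say whether replicates were separate cultures, so p-values measure the spread between these libraries only.

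Ribosome profiling counts the mRNA pieces that ribosomes shield from nuclease, and footprints per mRNA give a measure of how many ribosomes an average copy of that mRNA carries. A low ratio is known to arise from slow initiation, for example behind a structured leader or behind short upstream reading frames that capture scanning ribosomes. Ded1 is an essential DEAD-box RNA helicase that helps ribosomes scan structured leaders, and Dbp1 is its paralog, which in wild-type cells is made mainly under poor nutrition and in meiosis.

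The helicase genes followed the labels. DED1 mRNA was 63.0 and 61.5 RPKM in the Ded1 libraries and between 1.81 and 2.81 RPKM in the others. DBP1 mRNA was 4.26 and 5.12 RPKM in Ded1, 100.4 and 104.5 RPKM in Dbp1, and 153.2 and 155.6 RPKM in 2xDbp1. Inferred depth was about 6000000 to 8500000 reads per mRNA library and 8700000 to 13110000 per footprint library. The poorly translated genes had a median of 93.0 to 147 footprint reads per library, and 4 to 7 of the 193 with a known length had under 20 reads in a footprint library.

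The ratio ran from 0.00411 to 0.227 over the 200 genes, with a median of 0.184. The other 3878 genes had a median of 0.633. Their mRNA was not rare: the median was 67.2 RPKM, against 86.9 RPKM for the others, whereas the median footprint level was 11.0 RPKM against 60.6 RPKM. When genes meeting both minimums were split into 5 equal groups by mRNA level, these held 31, 65, 60, 31 and 13 of the 200, from the lowest to the highest level. In the library pairs, the 200 genes together took 1.38% to 1.61% of the mRNA RPKM of the table and 0.230% to 0.285% of its footprint RPKM. The edge of the list fell within a continuous range. The last genes inside were DML1 at 0.227188 and RTC2 at 0.227385, and the first outside were DAD3 at 0.227414 and MRX4 at 0.22762.

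**Figure D1:**
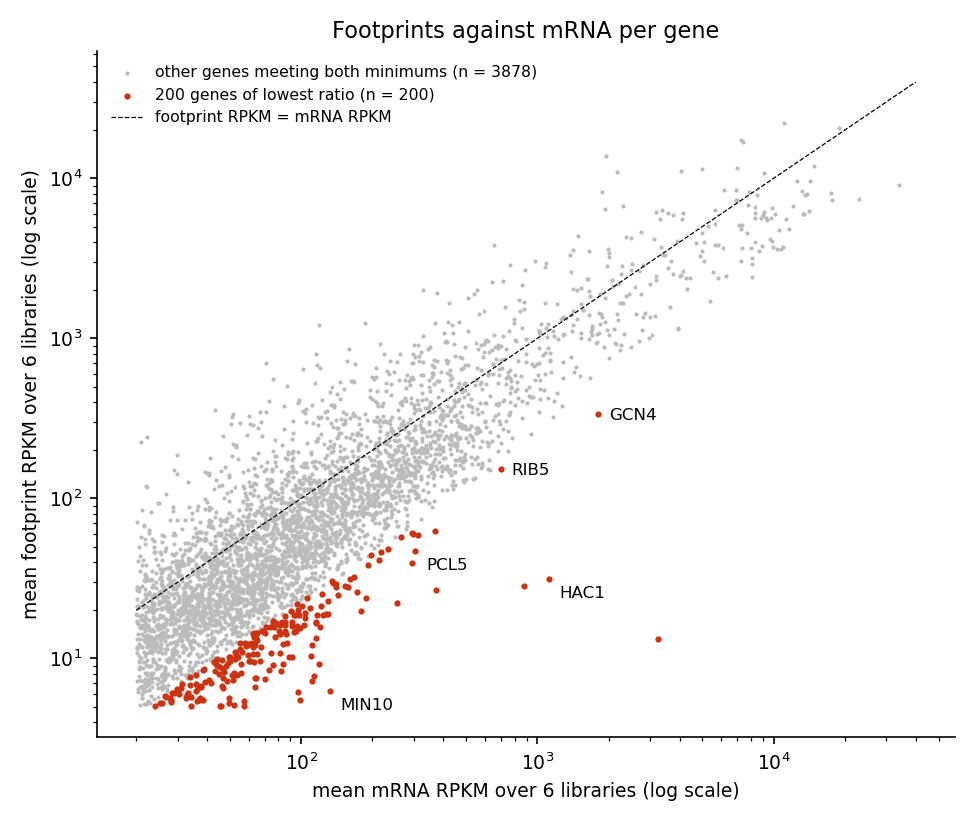
Mean footprint RPKM (y axis, log scale) against mean mRNA RPKM (x axis, log scale) over 6 libraries each, 1 point per gene meeting both minimums; red points are the 200 genes of lowest ratio and the dashed line marks equal values. The red points follow the lower border of the cloud, except for HAC1 (1122 RPKM in mRNA and 31.5 RPKM in footprints) and an ID with no reference entry at 3229 RPKM in mRNA, which lie far below it.

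HAC1 (YFL031W) had the lowest ratio of any gene with a standard name, 0.0281. In unstressed cells its mRNA is known to keep an intron that pairs with the leader and blocks translation until the intron is removed under stress. Its mRNA level was 957 and 962 RPKM in Ded1, 1273 and 1150 RPKM in Dbp1, and 1174 and 1215 RPKM in 2xDbp1. Its footprint level was 41.2 and 28.7 RPKM in Ded1, 38.5 and 24.4 RPKM in Dbp1, and 29.9 and 26.1 RPKM in 2xDbp1. The mRNA was higher in all 4 libraries of Dbp1 and 2xDbp1 than in both Ded1 libraries, while the footprint levels of the genotypes overlapped. The ratio of each library pair was 0.0431 and 0.0298 in Ded1, 0.0303 and 0.0212 in Dbp1, and 0.0255 and 0.0215 in 2xDbp1. Both 2xDbp1 pairs lay below both Ded1 pairs, and the Dbp1 pairs overlapped those of Ded1. The log2 change in translational efficiency of HAC1 was -0.49 (SE 0.284) in Dbp1 and -0.61 (SE 0.284) in 2xDbp1 against Ded1. Neither passed, with limma adjusted p = 1.00 and 0.973, or 0.532 and 0.165 when the libraries of a pair were matched.

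GCN4 (YEL009C) had the highest mRNA level of the named genes in the set, a mean of 1809 RPKM, and a ratio of 0.186. Its leader holds short upstream reading frames that keep ribosomes from the main frame when amino acids are plentiful. The mRNA of GCN4 was at 1339 and 1519 RPKM in Ded1, 2224 and 1927 RPKM in Dbp1, and 1807 and 2037 RPKM in 2xDbp1. Its footprints were at 166 and 337 RPKM in Ded1, 468 and 382 RPKM in Dbp1, and 237 and 426 RPKM in 2xDbp1. Both Ded1 libraries had less GCN4 mRNA than any library of the other genotypes, but the change of +0.54 on the log2 scale in Dbp1 (SE 0.111) did not pass, with a limma adjusted p of 0.0718. The pair ratios of 0.124 and 0.222 in Ded1, 0.210 and 0.198 in Dbp1, and 0.131 and 0.209 in 2xDbp1 overlapped, and replicate 1 was the lower one in Ded1 and in 2xDbp1.

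PCL5 (YHR071W), the cyclin that directs the kinase Pho85 to mark Gcn4 for degradation, had a ratio of 0.153. Its mRNA was 143 and 282 RPKM in Ded1, 403 and 354 RPKM in Dbp1, and 266 and 378 RPKM in 2xDbp1. Its pair ratio was 0.151 and 0.108 in Ded1, 0.164 and 0.125 in Dbp1, and 0.172 and 0.188 in 2xDbp1. The 2xDbp1 pairs were the highest. The log2 change of +0.46 (SE 0.474) in translational efficiency against Ded1 did not pass (limma adjusted p = 0.985, and 0.248 with pairs matched). In mRNA, Ded1 replicate 1 was the lowest library for GCN4, PCL5 and RTC2, and RTC2 stood at 22.01 RPKM in it against 84.3 RPKM in Ded1 replicate 2.

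The other genes of lowest ratio had little in common by role. Next after HAC1 among named genes came MIN10 at 0.0468, a frame of 264 nt with only 10 to 22 footprint reads per library. IPA1, which takes part in mRNA 3′ end formation, had 0.0634. REV7, the accessory subunit of the translesion polymerase zeta, had 0.0655, and ATG5, the acceptor of the ubiquitin-like Atg12, had 0.0680. RRG7, needed for respiratory growth, had 0.0776, and GPI15, of the enzyme that starts glycosylphosphatidylinositol anchors, had 0.0869. RIM21, the pH sensor of the plasma membrane, had 0.0880, and MRX7 of mitochondria had 0.0939. MSB4, which switches off Rab GTPases in secretion, had 0.0948, KAR1 of the spindle pole body had 0.0992, and ECM7 had 0.102.

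REV7 (YIL139C) shows how close the pairs could be at this low level. Its mRNA was 107 and 114 RPKM in Ded1, 110 and 105 RPKM in Dbp1, and 125 and 105 RPKM in 2xDbp1. Its footprints were 6.44 and 7.09 RPKM in Ded1, 7.90 and 6.83 RPKM in Dbp1, and 7.40 and 7.92 RPKM in 2xDbp1, from 38 to 68 reads per library. Both Dbp1 libraries overlapped those of Ded1 in either measure, and the 2xDbp1 footprints lay above those of Ded1, with a log2 change of +0.16 that did not pass (SE 0.135, limma adjusted p = 0.700). For ATG5 (YPL149W) the mRNA ranged only from 106 to 120 RPKM over the libraries, and the footprints were 6.83 and 5.82 RPKM in Ded1, 9.98 and 8.31 RPKM in Dbp1, and 6.40 and 9.09 RPKM in 2xDbp1. The Dbp1 pairs of ATG5 lay above both Ded1 pairs, with a log2 change in translational efficiency of +0.41 (SE 0.206, limma adjusted p = 1.00).

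**Figure D2:**
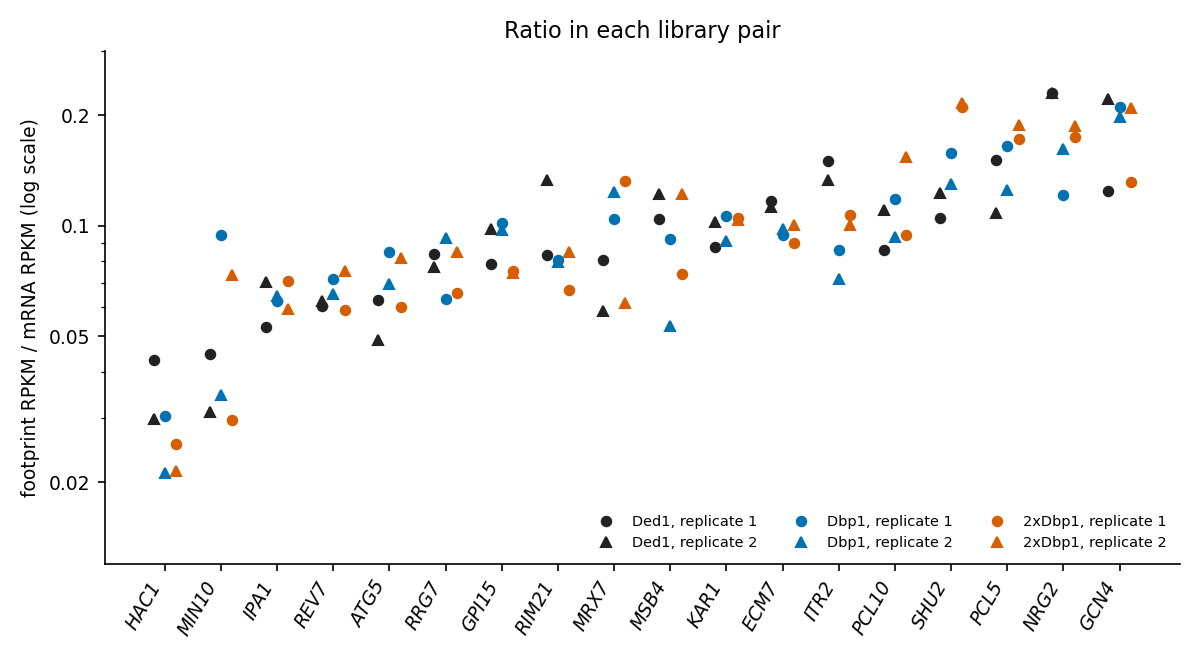
Footprint RPKM divided by mRNA RPKM (y axis, log scale) in each of the 6 library pairs, for the 12 named genes of lowest ratio and 6 further genes discussed in the text (x axis); circles are replicate 1, triangles replicate 2, and colors the genotypes. HAC1 reaches from 0.0212 to 0.0431, and for most genes the genotypes overlap; ITR2 and NRG2 are highest in Ded1 and SHU2 is highest in 2xDbp1.

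Gene lists by role placed few members of any 1 process in the set. Of genes meeting both minimums, 4.90% were in the set over all roles. Among autophagy genes it was 4 of 21, namely ATG5, ATG12, ATG10 and ATG38. The first 3 belong to the system that joins the ubiquitin-like Atg12 to Atg5, with ATG12 at 0.111 and the conjugating enzyme ATG10 at 0.145. ATG38, a subunit of the autophagy lipid kinase complex, had 0.223. Cyclins and cell cycle regulators gave 4 of 23. PCL10, a Pho85 cyclin that acts on glycogen synthase, had 0.109, CLB1, a mitotic cyclin, had 0.185, and PHO80, the Pho85 cyclin of phosphate control, had 0.211, beside PCL5.

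Factors of mitochondrial gene expression gave 6 of 49, and 4 of them activate translation of 1 mitochondrial mRNA each. These were ATP22 for ATP6 at 0.156, PET54 for COX3 at 0.186, PET111 for COX2 at 0.211, and SOV1 for VAR1 at 0.220. AEP2, which acts on the mRNA of an ATP synthase subunit, had 0.197, and MTG1, a GTPase of mitochondrial ribosome assembly, had 0.227. DNA replication and repair gave 5 of 67. Beside REV7 these were TEN1 of the telomere-capping CST complex at 0.104, the recombination protein RAD57 at 0.134, RMI1 of the Sgs1-Top3 complex at 0.174, and the exonuclease EXO1 at 0.197.

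Of 60 DNA-binding transcription factors, 4 were in the set: HAC1, GCN4, the glucose-regulated repressor NRG2 at 0.182, and SUT2 at 0.217. Of 55 protein kinases, 3 were, with the Mediator kinase SSN3 at 0.179. The tRNA enzymes TAD1 and THG1, at 0.106 and 0.134, were 2 of 44 in tRNA modification, and CWC27 and PRP42 were 2 of 64 in splicing and decay. Of 12 genes known for control by upstream reading frames or the leader, HAC1 and GCN4 were members. This is 16.7%, beside 4.90% of all genes meeting both minimums, but it rests on 2 genes. HAC1 is known for its intron rather than for upstream frames. The median ratio of the 12 was 0.423. None of 124 cytosolic ribosomal protein genes, 31 translation initiation factors or 23 hexose and amino acid transporters was in the set. Their median ratios were 0.694, 1.34 and 0.994.

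Meiotic and mating genes could hardly enter the set. Only 2 of the meiosis genes and 1 of the mating genes met the minimums, since their median mRNA levels were 1.99 and 1.79 RPKM in these mitotic cells. The footprint minimum also shaped the set. A further 103 genes met the mRNA minimum but not that of footprints, 102 of these had a ratio below the limit of the list, and 12 had no footprints in any library.

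Several protein complexes and families, grouped after the list was seen, held more than 1 member. The Ctf19 complex and MIF2 act at the inner kinetochore, which links centromeres to microtubules. Of 11 genes of this group that met both minimums, MCM21 had 0.170, MCM16 had 0.174 and MCM22 had 0.196. All 11 lay below 0.607, the median of all genes meeting both minimums, and the highest was 0.441. In the Smc5/6 complex of chromosome repair, NSE3 at 0.145, NSE1 at 0.175 and NSE5 at 0.219 were members among 4 that met both minimums. In the Shu complex, which acts in DNA repair, SHU2 at 0.152 and PSY3 at 0.179 were members among 3.

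Of 14 Golgi mannosyltransferases, 5 were members: MNT2, MNT3 and MNT4 of the MNN1 family, and KTR5 and KTR6 of the KRE2 family. They ran from 0.117 for MNT2 to 0.218 for KTR6, while others of these families were higher, MNN1 at 0.845, KRE2 at 0.767, KTR1 at 0.571 and KTR3 at 0.523. Among 7 genes of dynein, dynactin and partners, DYN3, LDB18 and ARP1 were members, at 0.117, 0.184 and 0.215. All 3 RRG genes that met both minimums were members, with RRG1 at 0.185 and RRG9 at 0.191 beside RRG7. RRG genes are needed for respiratory growth. Both myo-inositol transporters were, ITR2 at 0.109 and ITR1 at 0.204, and so were both subunits of the phosphatase that acts on Pah1, NEM1 at 0.192 and SPO7 at 0.204. The minimums removed many subunits of low mRNA level, 4 of 8 in Smc5/6 and 6 of 13 in the dynein group, so these counts cover the abundant part of each complex. The removed genes were not all low in footprints per mRNA. RRG8 had 7.74 RPKM in mRNA and 9.74 RPKM in footprints. In the Ctf19 group, NKP2 had 10.5 and 15.6 RPKM, CTF19 had 9.25 and 7.57 RPKM, and CTF3 had 13.0 and 3.66 RPKM.

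**Figure D3:**
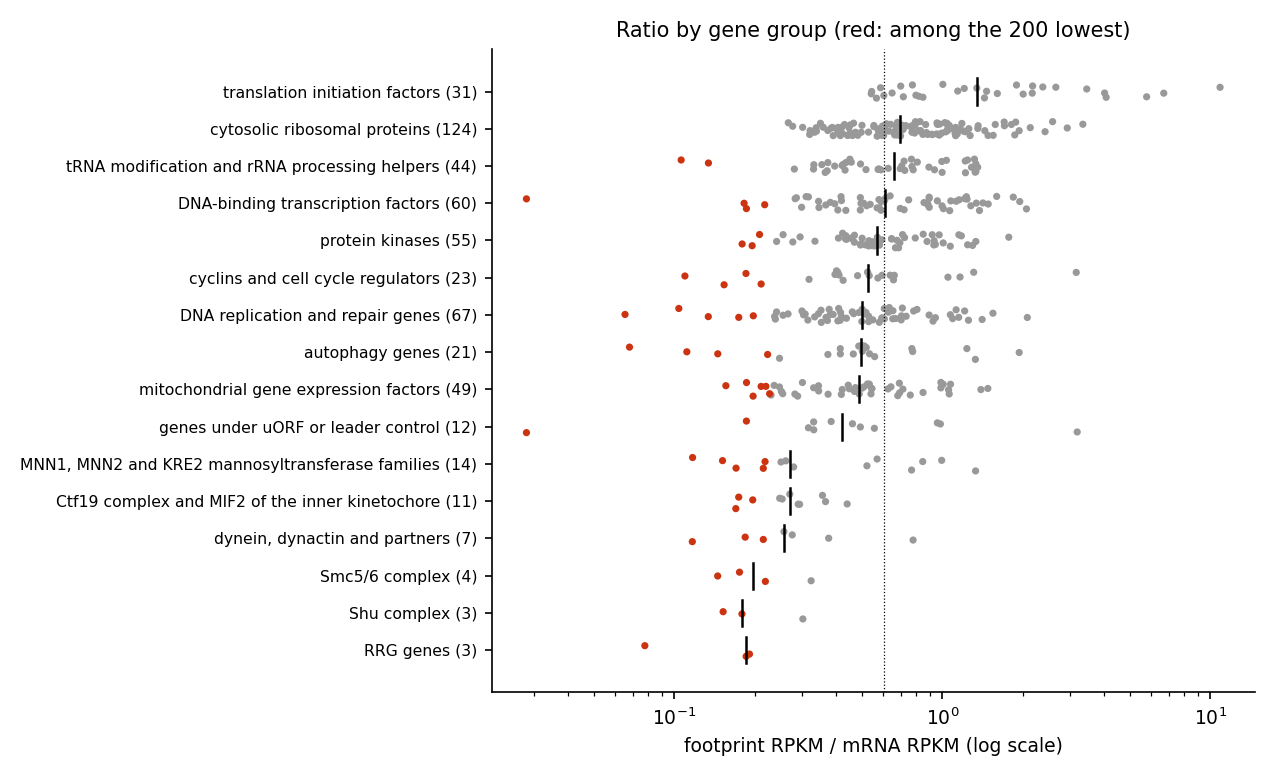
Ratio of mean footprint to mean mRNA RPKM (x axis, log scale) for each gene meeting both minimums in 16 lists (number of genes in parentheses); red points are among the 200 lowest, black bars are list medians and the dotted line is the median of all 4078 genes, 0.607. The lower 6 lists were put together after the members were seen; translation initiation factors have a median of 1.34 and the Ctf19 group has all 11 genes left of the dotted line.

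The 200 genes were near the usual length but seldom long. The median span of the 193 with an entry in the reference was 1011 nt, against 1128 nt for the others. Only GDH2, the NAD-dependent glutamate dehydrogenase, exceeded 3000 nt, which is 0.518% of the set against 4.49% of the others. Spans of 600 to 1500 nt made up 63.7% of the set and 50.7% of the others. At the short end, 5.18% of the set and 3.25% of the others had at most 300 nt, among them MCO6 of mitochondria, with a mean mRNA level of 368 RPKM, and DAD1 of the kinetochore ring complex, with 311 RPKM. A further abundant mRNA was that of RIB5, riboflavin synthase, at 701 RPKM and a ratio of 0.218.

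Gene models limit some of the ratios. An overlap with another coding gene was found for 4 members (VPS38, YOR105W, IRC9 and AQY2), 2.07% of the set against 1.48% of the others, and how overlapping reads were counted is not given in the sources used here. CRS5 is a pseudogene in the reference, and the span of GPI15 is not a multiple of 3. Of the 200, 7 had no entry in the reference, out of 35 such IDs among all genes meeting both minimums. The lowest ratio of all, 0.00411, belonged to one of these, YMR013W-A, singled out after its values were seen. Its mRNA was 2925 to 3706 RPKM and its footprints were 4.12 to 22.1 RPKM over the libraries.

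The ranking was repeated within each genotype, whose libraries had also helped to choose the set. Ranked in Ded1 alone, 173 of the 200 were again among the 200 lowest, 179 in Dbp1 alone and 175 in 2xDbp1 alone, and 141 were in all 3 lists. The lists of different genotypes shared 157 to 162 genes, or 78.5% to 81.0% of each list. Lists of single library pairs, which rest on fewer reads, shared 143 to 150 genes between the replicates of 1 genotype, or 71.5% to 75%. By single library pair, 88 members were among the 200 lowest in all 6 pairs and 163 in at least 4. The list also depended on its minimums. With at least 10 RPKM of footprints required, a level that many members do not reach, 113 of the 200 stayed, and with no footprint minimum 105 stayed.

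The median ratio of the set was also alike between genotypes, in values scaled to the depth of each library. It was 0.180 and 0.178 in the Ded1 pairs, 0.183 and 0.177 in the Dbp1 pairs, and 0.174 and 0.187 in the 2xDbp1 pairs. These give 0.179 ± 0.00150 in Ded1, 0.180 ± 0.00439 in Dbp1 and 0.181 ± 0.00901 in 2xDbp1 (SD, n = 2), which differ by less than the spread of the replicates in 2xDbp1. The median over all genes meeting both minimums was 0.618 ± 0.00602 in Ded1, 0.605 ± 0.00245 in Dbp1 and 0.603 ± 0.00481 in 2xDbp1. Single members varied more than other genes. The replicates of a genotype differed by a median of 0.188 to 0.207 on the log2 scale in the set, against 0.106 to 0.126 in the other genes. Over all 6 pairs, the highest ratio was a median of 1.46 times the lowest in the set and 1.26 times in the others, and 89% of members stayed within a 2-fold range, against 98.7% of the others.

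No change in translational efficiency passed in any member, in any of the 3 comparisons. Translational efficiency was tested as the footprint change minus the mRNA change in a limma model over all 12 libraries, at a Benjamini-Hochberg adjusted p under 0.05 over 4785 genes. In Dbp1 against Ded1, 0 of 200 members were called beside 0.0418% of all genes. In 2xDbp1 against Ded1 it was also 0 of 200 beside 0.0418%, and the 2 genes called in each of these comparisons were DED1 and DBP1. In 2xDbp1 against Dbp1 it was 0 of 200 beside 0% of all genes. At an unadjusted p under 0.05, 16, 13 and 5 members passed (8%, 6.5% and 2.5%), against 3.16%, 5.12% and 3.59% of all genes tested. With the libraries of a pair matched, 0, 0 and 0 members were called, beside 0.0627%, 0.104% and 0% of all genes, and the lowest limma adjusted p was 0.116, 0.0713 and 0.220. In that fit 34, 26 and 14 members had an unadjusted p under 0.05 (17%, 13% and 7%), beside 7.5%, 12.5% and 9.3% of all genes. The comparisons with Ded1 share the Ded1 libraries.

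The median log2 change in translational efficiency of the 200 was -0.01 in Dbp1 against Ded1, against -0.02 over all genes tested. In 2xDbp1 against Ded1 both medians were 0.00, and in 2xDbp1 against Dbp1 both were 0.02. Each library is scaled to its own depth, so a change shared by all genes could not show in these medians. Of the members, 97, 100 and 109 lay above 0. In Dbp1 against Ded1, the pairs did not overlap in 34 members that were higher (17%) and 45 that were lower (22.5%), beside 13.4% and 21.8% of all genes. For 2xDbp1 against Ded1 it was 35 and 39 (17.5% and 19.5%), beside 19.7% and 23.6%, and in 2xDbp1 against Dbp1 37 and 22 (18.5% and 11%), beside 24.9% and 17.8%. From the 5th to the 95th percentile the members' changes ran from -0.47 to 0.38 in Dbp1 against Ded1, where all genes ran from -0.29 to 0.25. The ranges were closer in 2xDbp1 against Ded1, -0.37 to 0.40 against -0.33 to 0.30, and in 2xDbp1 against Dbp1, -0.33 to 0.36 against -0.27 to 0.29. Their footprint reads were few, with the medians given above, and the part of counting error in this spread was not tested.

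**Figure D4:**
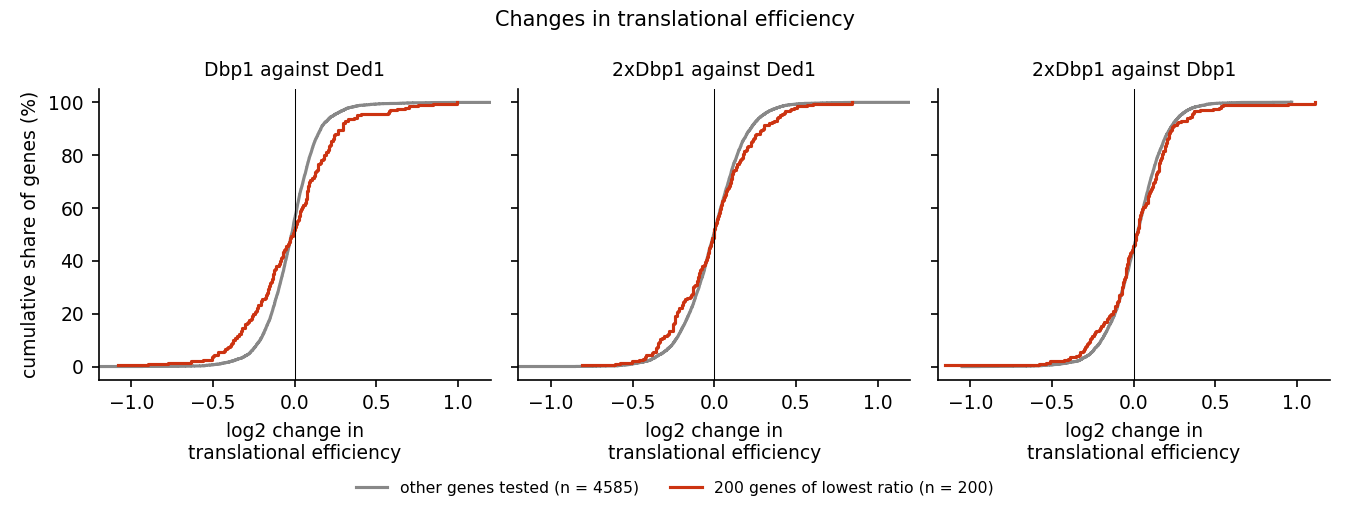
Cumulative share of genes in percent (y axis) by log2 change in translational efficiency (x axis, cut at 1.2 on either side) in 3 comparisons, for the 200 genes of lowest ratio (red) and the other 4585 genes tested (grey). Both curves cross the vertical line at no change near the middle, with 97, 100 and 109 of the 200 above 0, and the red curve is the flatter one in Dbp1 against Ded1.

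The members nearest to a change in translational efficiency were ITR2 and SHU2. ITR2 (YOL103W), the minor myo-inositol transporter, had 116 and 114 RPKM of mRNA in Ded1, 109 and 101 RPKM in Dbp1, and 108 and 117 RPKM in 2xDbp1. Its footprints were 17.4 and 15.2 RPKM in Ded1, 9.36 and 7.22 RPKM in Dbp1, and 11.6 and 11.8 RPKM in 2xDbp1. The footprint levels of the 3 genotypes did not overlap, with Ded1 highest and Dbp1 lowest, while the mRNA of Ded1 and 2xDbp1 overlapped. The pair ratio of ITR2 was 0.142 ± 0.0122 in Ded1, 0.0786 ± 0.0101 in Dbp1 and 0.104 ± 0.00470 in 2xDbp1 (SD, n = 2). Its log2 change in translational efficiency was -0.78 in Dbp1 (SE 0.166, limma adjusted p = 0.996, and 0.116 with pairs matched). In 2xDbp1 it was -0.42 (SE 0.166, limma adjusted p = 0.913, and 0.224 with pairs matched). ITR1 (YDR497C), the major transporter, had pair ratios in the same order, 0.226 and 0.226 in Ded1, 0.184 and 0.181 in Dbp1, and 0.208 and 0.209 in 2xDbp1. Its change of -0.31 in Dbp1 (SE 0.208) did not pass either (limma adjusted p = 1.00).

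SHU2 (YDR078C) had 64.3 and 72.9 RPKM of mRNA in Ded1, 60.7 and 74.6 RPKM in Dbp1, and 53.1 and 52.0 RPKM in 2xDbp1. Its footprints were 6.76 and 8.97 RPKM in Ded1, 9.59 and 9.69 RPKM in Dbp1, and 11.2 and 11.2 RPKM in 2xDbp1, from 36 to 87 reads per library. The 2xDbp1 libraries had the least mRNA and the most footprints. The pair ratio was 0.114 ± 0.0127, 0.144 ± 0.0197 and 0.213 ± 0.00393 in Ded1, Dbp1 and 2xDbp1 (SD, n = 2). The log2 change against Ded1 was +0.85 in 2xDbp1 (SE 0.190, limma adjusted p = 0.733, and 0.0713 with pairs matched). Against Dbp1 it was +0.55 (SE 0.190, limma adjusted p = 0.999, and 0.310 with pairs matched).

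Other members with low unadjusted p rested on fewer reads or smaller changes. NRG2 had pair ratios of 0.230 and 0.230 in Ded1, 0.121 and 0.162 in Dbp1, and 0.174 and 0.187 in 2xDbp1. Its Dbp1 pairs were the lowest, with a log2 change of -0.63 against Ded1 (SE 0.169, limma adjusted p = 1.00). ERF2, a subunit of the enzyme that palmitoylates Ras, had 0.138 and 0.134 in Ded1, 0.107 and 0.126 in Dbp1, and 0.0815 and 0.0912 in 2xDbp1. All 3 genotypes were apart for ERF2, in the order Ded1, Dbp1, 2xDbp1. The change of ERF2 in 2xDbp1 against Ded1 was -0.58 (SE 0.169, limma adjusted p = 0.909, and 0.163 with pairs matched). In 2xDbp1 the footprints of ERF2 lay under the minimum of 5 RPKM, which was met only through Ded1 and Dbp1. The lower values of ERF2 in 2xDbp1 are thus tied to how it entered the set. RAD57 had 0.113 ± 0.00729 in Ded1, 0.138 ± 0.00700 in Dbp1 and 0.152 ± 0.000584 in 2xDbp1 (SD, n = 2). Its change of +0.40 in 2xDbp1 against Ded1 (SE 0.129) had a limma adjusted p of 0.909, and of 0.230 with pairs matched. IRC9 had a change of -1.08 in Dbp1 against Ded1 (SE 0.332, limma adjusted p = 1.00), but on 12 to 33 footprint reads per library and with a coding neighbour that overlaps it. The mean footprint level of IRC9 in Dbp1 lay under the minimum of 5 RPKM, which was met only through Ded1 and 2xDbp1. This decrease is thus tied to how IRC9 entered the set. CRS5, a copper-binding metallothionein, had +0.99 (SE 0.331, limma adjusted p = 1.00) on 5 to 12 reads. The mean footprint level of CRS5 in Ded1 lay under the minimum of 5 RPKM, met only through Dbp1 and 2xDbp1, so its rise is also tied to its entry.

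Further members whose pairs were apart in at least 1 comparison did not pass either. SPO7, the regulatory subunit of the phosphatase that acts on Pah1, had pair ratios of 0.265 and 0.223 in Ded1, 0.211 and 0.197 in Dbp1, and 0.194 and 0.161 in 2xDbp1. The genotypes of SPO7 did not overlap, and the log2 change in 2xDbp1 against Ded1 was -0.46 (limma adjusted p = 0.909, and 0.213 with pairs matched). GDH2 had pair ratios of 0.109 and 0.130 in Ded1, 0.279 and 0.156 in Dbp1, and 0.1999 and 0.191 in 2xDbp1. Both Ded1 pairs of GDH2 were the lowest, with a change of +0.67 in Dbp1 (limma adjusted p = 1.00). The mean footprint level of GDH2 in Ded1 lay under the minimum of 5 RPKM, which was met only through Dbp1 and 2xDbp1. This rise is thus tied to how the gene entered the set. MTQ1, which methylates release factors, had 0.206 and 0.165 in Ded1, 0.245 and 0.234 in Dbp1, and 0.133 and 0.165 in 2xDbp1. Its Dbp1 pairs were the highest, and the change in 2xDbp1 against Dbp1 was -0.58 (limma adjusted p = 0.999, and 0.360 with pairs matched). MTQ1 met the footprint minimum of 5 RPKM only through Dbp1, where it was high, so this difference is tied to how it entered the set. PSY3, the partner of SHU2 in the Shu complex, had 0.235 and 0.107 in Ded1, 0.168 and 0.174 in Dbp1, and 0.172 and 0.237 in 2xDbp1. Its genotypes overlapped, since the Ded1 pairs lay far apart. The change of PSY3 in 2xDbp1 against Ded1 was +0.30 (SE 0.299, limma adjusted p = 0.985, and 0.692 with pairs matched).

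Changes in mRNA level passed in 5 members in Dbp1 against Ded1, 2.50% of the set beside 1.52% of the 5198 genes tested. RRT8, MIN6 and MHO1 rose, and MET14 and AQY2 fell. RRT8 and MHO1 met a minimum of the set only through the genotypes where they were high, as given below. In 2xDbp1 against Ded1 it was 0 of 200, beside 0.077% of all genes, by limma. At an unadjusted p under 0.05 there were 31 members in Dbp1 against Ded1 (15.5%, beside 19.5% of all genes) and 34 in 2xDbp1 against Ded1 (17%, beside 15.1%). In 2xDbp1 against Dbp1 limma called 0 of 200, beside 0.0192%, with 14 at an unadjusted p under 0.05 (7%, beside 7.77%). Fitting the replicate number as a term gave 0 in 2xDbp1 against Ded1 and 1 in 2xDbp1 against Dbp1, the 1 being AQY2 (limma adjusted p = 0.0253), beside 0.135% and 0.077% of all genes. The median log2 change in mRNA of the members was 0.08 in both comparisons with Ded1, against 0.04 and 0.03 over all genes. In Dbp1 against Ded1, 70.5% of members lay above 0, against 57.0% of all genes. In Dbp1 against Ded1, 0 members passed when only these genotypes were fitted, beside 0.154% of all genes, and 0 without Ded1 replicate 1, Dbp1 replicate 1 or either 2xDbp1 replicate, beside 0.0384% to 0.212%. Without Ded1 replicate 2 it was 1 (0.346% of all genes), and without Dbp1 replicate 2 it was 8 (3.92% of all genes). For 2xDbp1 against Ded1, 2 passed without Dbp1 replicate 1 or 2, beside 0.521% and 0.519% of all genes.

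RRT8 (YOL048C) had 23.8 and 24.3 RPKM of mRNA in Ded1, 45.3 and 45.0 RPKM in Dbp1, and 46.8 and 39.8 RPKM in 2xDbp1. Its footprints were 2.89 and 3.51 RPKM in Ded1, 7.75 and 8.14 RPKM in Dbp1, and 8.32 and 9.58 RPKM in 2xDbp1. Both measures were lower in both Ded1 libraries than in any other. The Ded1 footprints lay under the minimum of 5 RPKM, which RRT8 met only through Dbp1 and 2xDbp1, where it was high. Its rise is thus tied to how it entered the set. In Dbp1 its mRNA rose by 0.88 (SE 0.108, limma adjusted p = 0.0197) and its footprints by 1.10 (SE 0.148, limma adjusted p = 0.0185) on the log2 scale. In 2xDbp1 the changes were +0.82 in mRNA and +1.25 in footprints, with limma adjusted p = 0.0513 and 0.0850.

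MET14 (YKL001C), the kinase that activates sulfate for assimilation, went the other way. Its mRNA was 115 and 119 RPKM in Ded1, 73.2 and 78.5 RPKM in Dbp1, and 90.3 and 82.7 RPKM in 2xDbp1. Its footprints were 26.0 and 27.6 RPKM in Ded1, 14.8 and 10.8 RPKM in Dbp1, and 16.4 and 17.1 RPKM in 2xDbp1. Ded1 was highest in both measures without overlap, and Dbp1 was lowest. In Dbp1 the mRNA fell by 0.62 (SE 0.0951, limma adjusted p = 0.0351) and the footprints fell by 1.02 (SE 0.147, limma adjusted p = 0.0206).

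AQY2 (YLL052C), an aquaporin gene, had 209 and 150 RPKM of mRNA in Ded1, 77.3 and 66.4 RPKM in Dbp1, and 181 and 130 RPKM in 2xDbp1. Both Dbp1 libraries lay below the others, and the mRNA fell by 1.29 (SE 0.203, limma adjusted p = 0.0351), with reads that its overlapping neighbour may share. MIN6, a frame of 180 nt, had 64.5 and 64.7 RPKM of mRNA in Ded1, 111 and 104 RPKM in Dbp1, and 108 and 124 RPKM in 2xDbp1. The Ded1 libraries were lowest, and the mRNA rose by 0.73 in Dbp1 (SE 0.102, limma adjusted p = 0.0285). MHO1 had 17.5 and 17.0 RPKM in Ded1, 38.7 and 29.4 RPKM in Dbp1, and 27.4 and 24.1 RPKM in 2xDbp1. It also was lowest in Ded1, and rose by 0.93 in Dbp1 (SE 0.148, limma adjusted p = 0.0370). In Ded1 the mRNA of MHO1 lay under the minimum of 20 RPKM, which was met only through Dbp1 and 2xDbp1. This rise is thus also tied to how the gene entered the set.

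Footprint levels changed in 3 members in Dbp1 against Ded1, 1.50% of the set beside 3.31% of the 4830 genes tested. RRT8 rose, with the limit on its entry given above, and MET14 and ITR2 fell. The footprints of ITR2 fell by 0.90 (SE 0.144, limma adjusted p = 0.0292), with a mRNA change of -0.12 (SE 0.0947, limma adjusted p = 0.507). In 2xDbp1 against Ded1 limma called 0 of 200 beside 0.0621% of all genes, and in 2xDbp1 against Dbp1 0 of 200 beside 0%. At an unadjusted p under 0.05 there were 30 members in Dbp1 against Ded1 (15%, beside 23.5% of all genes), 18 in 2xDbp1 against Ded1 (9%, beside 9.3%) and 12 in 2xDbp1 against Dbp1 (6%, beside 9.07%). Fitting the replicate number as a term gave 0 and 0 for these. In Dbp1 against Ded1, 0 members passed when only these genotypes were fitted, beside 0.912% of all genes, and 0 without Ded1 replicate 1 or either 2xDbp1 replicate, beside 0.455% to 0.912%. Without Dbp1 replicate 2 it was 8, beside 5.05% of all genes. For 2xDbp1 against Ded1, 1 passed without Dbp1 replicate 1 or 2, beside 0.437% and 0.455% of all genes.

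**Figure D5:**
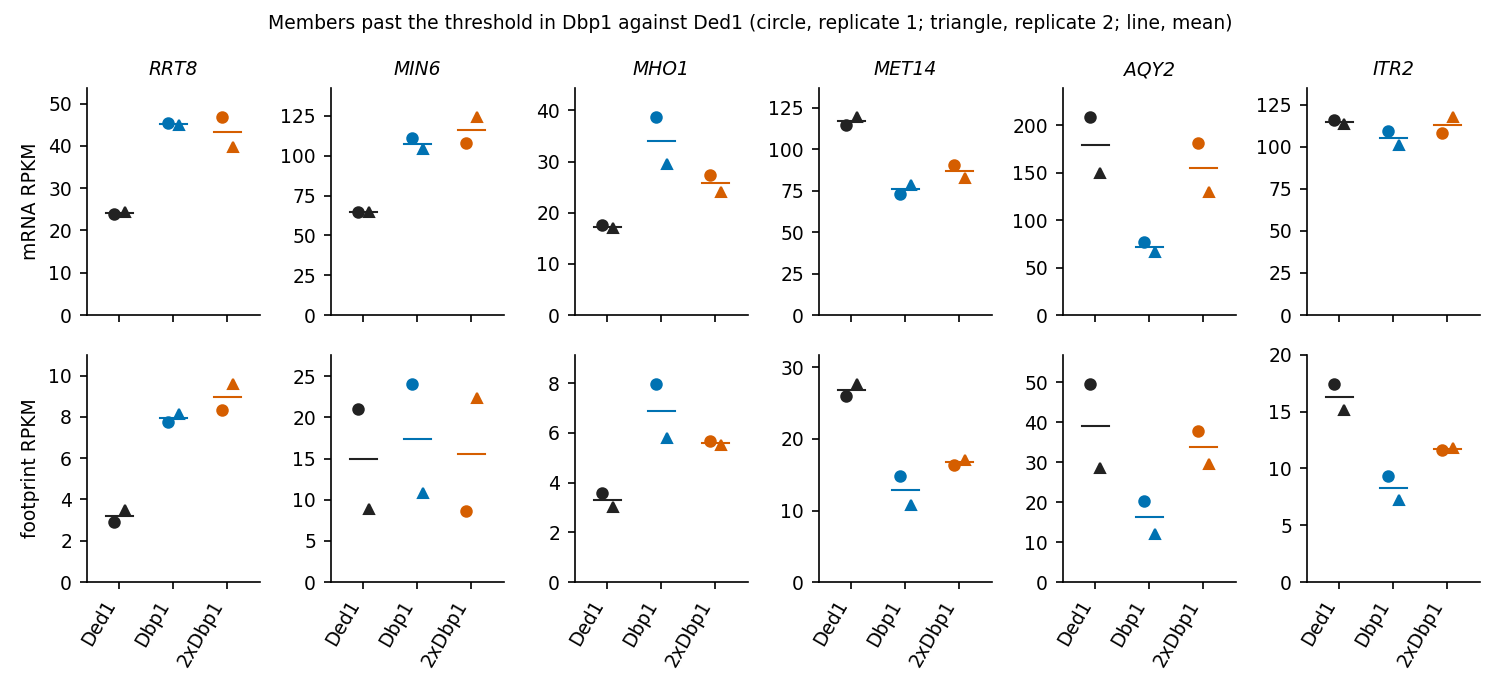
mRNA RPKM (upper row, y axis) and footprint RPKM (lower row, y axis) in each library by genotype (x axis) for the 6 members past the threshold in mRNA or footprints in Dbp1 against Ded1; circles are replicate 1, triangles replicate 2 and lines the means. The mRNA of RRT8 lies at 23.8 and 24.3 RPKM in Ded1 and at 45.3 and 45.0 RPKM in Dbp1, and ITR2 differs in footprints with little difference in mRNA.

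Whole lists of genes by role gave few calls outside the helicases, all in Dbp1 against Ded1 and none of them members. In footprints, where 3.31% of all genes were called, 3 of 30 autophagy genes and 1 of 50 factors of mitochondrial gene expression rose, and 2 of 45 genes of tRNA modification fell. Of 29 hexose and amino acid transporters 1 rose and 2 fell, and of 95 DNA-binding transcription factors 1 rose and 1 fell. In mRNA, where 1.52% of all genes were called, 1 of 32 autophagy genes rose and 1 of 36 transporters fell. No list other than the translation initiation factors, which hold DED1 and DBP1, had a gene called in translational efficiency in any comparison.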

How the data were processed

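Footprint and mRNA libraries of 3 genotypes with 2 replicates each (12 libraries) were grouped from their titles. CASAVA, bcl2fastq 2.17 and Bowtie2 are named per the submitters' processing notes; what each did is not given in the sources used here, nor are build, annotation and strand rule. The authors deposited RPKM, read as such from the values, since the labels name no unit: low values times gene length less 60 nt are multiples of 1 step per library. Within 0.02 reads, 85.2% to 89.1% of values up to 200 reads came out whole, which gives the inferred depth. Such read numbers give a measure of counting error, but not of the variation between libraries.

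Of 6159 IDs, 5637 matched an R64 reference gene table, used for names, spans and overlaps only, and 188 genes were 0 in every library. No nucleotide or protein sequence was used here.

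Tests used limma 3.58.1 (R 4.3.3, moderated with a trend) on log2(RPKM + 1), with a mean of at least 5 RPKM, 1 spread shared by the genotypes, and Benjamini-Hochberg adjustment over all genes tested, 2-sided. All 200 members passed this minimum in these fits, as the rule requires it of footprints and more of mRNA. The pseudocount of 1 understates changes of low genes. The model was tested on simulated data. For translational efficiency the interaction term over the 12 libraries was tested, and matching mRNA and footprint libraries of a pair was an alternative. Those of the same genotype and number deviated together (correlations 0.533, 0.657 and 0.417 in Ded1, Dbp1 and 2xDbp1), so they are pairs. The main fit did not use this matching. The median SE of the members was 0.194 in the main fit and 0.162 with pairs matched. Matched p-values are not given for every gene named. Tables and plots used Python 3.11.15, pandas 2.3.3, numpy 2.4.6 and matplotlib 3.10.9.

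The members and gene lists were chosen with earlier results of these data known, and the complexes after the members were seen. Genes named are the 12 of lowest ratio, the lowest up to 3 of each list, those called or of lowest p in each comparison, those at the edge of the list, and the 5 longest and 5 most abundant. Genes with a standard name were preferred, and members of the complexes, ITR1 and YMR013W-A were added after their values were seen.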

Additional observations from a re-analysis of the deposited data

How the results depend on the processing

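Pseudocounts of 0.5 and 5 RPKM, a minimum of 20 RPKM or none, rescaling, only the compared genotypes, leaving out a replicate, and replicate terms were tried. The 0 calls of members in translational efficiency stayed 0 in all of them, the replicate block by library pair included. In mRNA, Dbp1 against Ded1 called 0 members with only the compared genotypes and 0 to 8 with a replicate left out, in place of 5. 2xDbp1 against Ded1 called 2 with a minimum of 20 RPKM, 1 after rescaling, 2 with only the compared genotypes (0.239%, 0.154% and 0.501% of all genes) and 0 to 2 with a replicate left out, in place of 0. In footprints, Dbp1 against Ded1 called 0 with a minimum of 20 RPKM, which 37 members and none of those 3 met, 0 with only the compared genotypes and 0 to 8 with a replicate left out, in place of 3, and 2xDbp1 against Ded1 called 0 to 1. The replicate block by number across genotypes called 7, 0 and 1 members in mRNA, beside 2.23%, 0.135% and 0.077% of all genes, and 4, 0 and 0 in footprints, beside 2.96%, 0.104% and 0%. These numbers do not pair the genotypes, since correlations ran from -0.107 to 0.355. With a replicate left out, the members' median change in translational efficiency ran from -0.0471 to 0.050004 in 2xDbp1 against Ded1 and from -0.0229 to 0.0726 in 2xDbp1 against Dbp1. The list kept 113 genes at a footprint minimum of 10 RPKM, 105 with no footprint minimum and 100 when the 100 lowest were taken, and 190 to 196 without 1 replicate, an alternative added after seeing the data. For single genes, picked as called or of lowest p in these same fits, 0 of 537 alternatives reversed the direction. The alternatives share most libraries with the main fit, so a reversal was unlikely from the start. In mRNA 32 of 169 lost the threshold and 10 gained it, and in footprints 15 of 134 lost it and 2 gained it. The 234 for translational efficiency started below the threshold and stayed there. The cause of these differences was not tested. Upstream ATGs and bases before the start codon were not run, since no sequence was used here. There were 2 replicates and a median of 93.0 to 147 footprint reads per member. The median SE of a member's log2 change in translational efficiency was 0.194. Large changes also went uncalled, down to -1.08 in Dbp1 against Ded1, in IRC9, with the limit on its entry given above. The part of read depth in this was not tested.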
